A study of Mus musculus with 107 samples.

Results

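Mouse neural progenitor cells (NPC) were passed through glass pipettes either in culture medium or in a hydrogel carrier, and the RNA on their ribosomes was sequenced to ask what the carrier changes during an injection. The 10 libraries described here are all those whose titles name passage through a pipette in media (NPC media, n = 5) or in DCH (NPC DCH, n = 5), out of 107 libraries and 23 groups in the series. The series as a whole covers embryonic stem cells, NPC cultures and their astrocyte differentiation, host astrocytes and NPC grafts. In every library of both groups the cells were NPC of C57BL/6 background and RiboTag + genotype, derived from a single embryonic stem cell line by treatment with retinoic acid and a hedgehog agonist and then kept in EGF and FGF in B27 medium without vitamin A. The only labelled difference between the groups was the carrier. The labels do not give the passage or the NPC derivation of these libraries, so a difference in either could not be told apart from the carrier. DCH is a synthetic diblock copolypeptide hydrogel, which was assembled in buffered saline or medium and then mixed with an equal volume of cells in medium. A further group, NPC DCH t=4 hrs (n = 5), stood in the hydrogel for 4 h before the pipette. This held group is used below only to show where the hydrogel libraries differed from it. Levels are also given for 5 groups of NPC cultures (22 libraries), whose titles differ in passage number or in derivation label. A last reference is host astrocytes of the healthy spinal cord (n = 9). These came from transgenic mice that express RiboTag through Gfap-Cre, so their genotype differed from that of the NPC.

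RiboTag cells carry an HA tag on Rpl22, a protein of the large cytosolic ribosomal subunit, so that an HA antibody pulls down ribosomes together with the mRNAs on them. NPC are dividing precursors that EGF and FGF keep in an immature state and that can become astrocytes, oligodendrocytes or neurons when those signals fall away. The labels do not say whether the 5 replicates of a group came from separate cultures, so the p-values measure the spread between these libraries, which may be technical.

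The gene counts of a library summed to 56526223–76542216 in medium and 62703026–88257346 in hydrogel, and the means did not differ beyond that spread (exact two-sided permutation test, p = 0.619, where the smallest p possible is 0.00794). Between 14340 and 15123 genes had a count in each library. On principal components of the 9413 genes that averaged 10 CPM or more, the first component (29.8% of the variance) separated all hydrogel libraries (9.41 to 16.1) from all medium libraries (-12.4 to -10.5). NPC media replicate 1 stood apart from the other libraries on the second component and NPC DCH replicate 4 on the third, so the comparison was also made without these libraries. Levels are in CPM, counts per 1000000 counts of the library, and are listed in the order of replicates 1 to 5. Each change is a log2FC, the log2 of hydrogel over medium, given ± its SE from edgeR's quasi-likelihood F test, with a p adjusted by the Benjamini-Hochberg method over all genes tested and a DEG called at an adjusted p below 0.01.

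The cells carried the markers of NPC in both carriers. Rpl22, the tagged gene, was at 105, 103, 95.8, 90.3 and 94.6 CPM in medium and 111, 100.4, 108, 108 and 98.5 CPM in hydrogel, and did not pass the test (log2FC 0.11 ± 0.07, adjusted p = 0.403). Sox2, a transcription factor that maintains neural progenitors, was at 270.2–297 CPM in medium and 218–274 CPM in hydrogel. Gfap, the intermediate filament of mature astrocytes, was at 15.4–29.8 CPM in medium and 25.3–34.6 CPM in hydrogel against 21064 ± 1824 CPM (SD, n = 9) in astrocytes of the healthy cord. All 16 myeloid markers looked for were below 1 CPM on average in both groups, and none of the myeloid, endothelial, fibroblast, pluripotency or oligodendrocyte markers that entered the test was a DEG by edgeR, where 0, 1, 3, 2 and 5 of them, in that order, had an unadjusted p under 0.05 (DESeq2 called 1 oligodendrocyte marker higher and 0 of the others).

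Of 13860 genes tested, 265 (1.91%) were higher and 334 (2.41%) lower in hydrogel, and 599 (4.32%) differed in either direction. Most differences were small. The median size of a DEG's log2FC was 0.42 among the higher and 0.43 among the lower genes, and 41 DEGs exceeded 1 in size, 32 of them higher and 9 lower. The libraries of the 2 groups did not overlap in 243 of the 265 higher and 315 of the 334 lower DEGs. These were called on the same libraries, so this follows largely from the calls. Of all genes tested, 504 (3.64%) had every hydrogel library above every medium library and 649 (4.68%) had every one below. Across all genes tested the median log2FC was 0.003. Without the 2 libraries that stood apart, an alternative chosen after seeing the data, 277 genes were higher and 349 lower, and 115 of the 135 DEGs named below kept their call. The 20 that lost it were Hic1, Ndrg2, Fgfr3, Slc4a4, Trim25, Sgsm1, Lrrn4, Mthfd2, Sox2, Dpysl2, Ctsd, Npc2, Serpina3n, Cxcl12, Gap43, Uqcrq, Elovl6, Lef1, Smarca2 and Arid2.

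The genes that rose most in hydrogel, among those of 10 CPM or more in a group and with no overlap between libraries, included Rarb, Ptprn, Gsx1, Ifi27l2a, Adora2a, Lpo, Hic1, Megf11, ND6, Clu and Prss35. Those that fell most were Sphk1, Dpysl5, Adamtsl3, Chac1, Gria2, Bbc3, Sgsm1, Snai1, Fras1, Emid1, Lrrn4 and Fam217b. They span 1.40 to 1.98 upward and 0.92 to 1.70 downward on the log2 scale. Because the groups were required not to overlap, the absence of overlap among these 23 genes is a property of the choice; 3.64% of all genes tested had every hydrogel library above every medium library, and 4.68% had every one below.

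**Figure D1:**
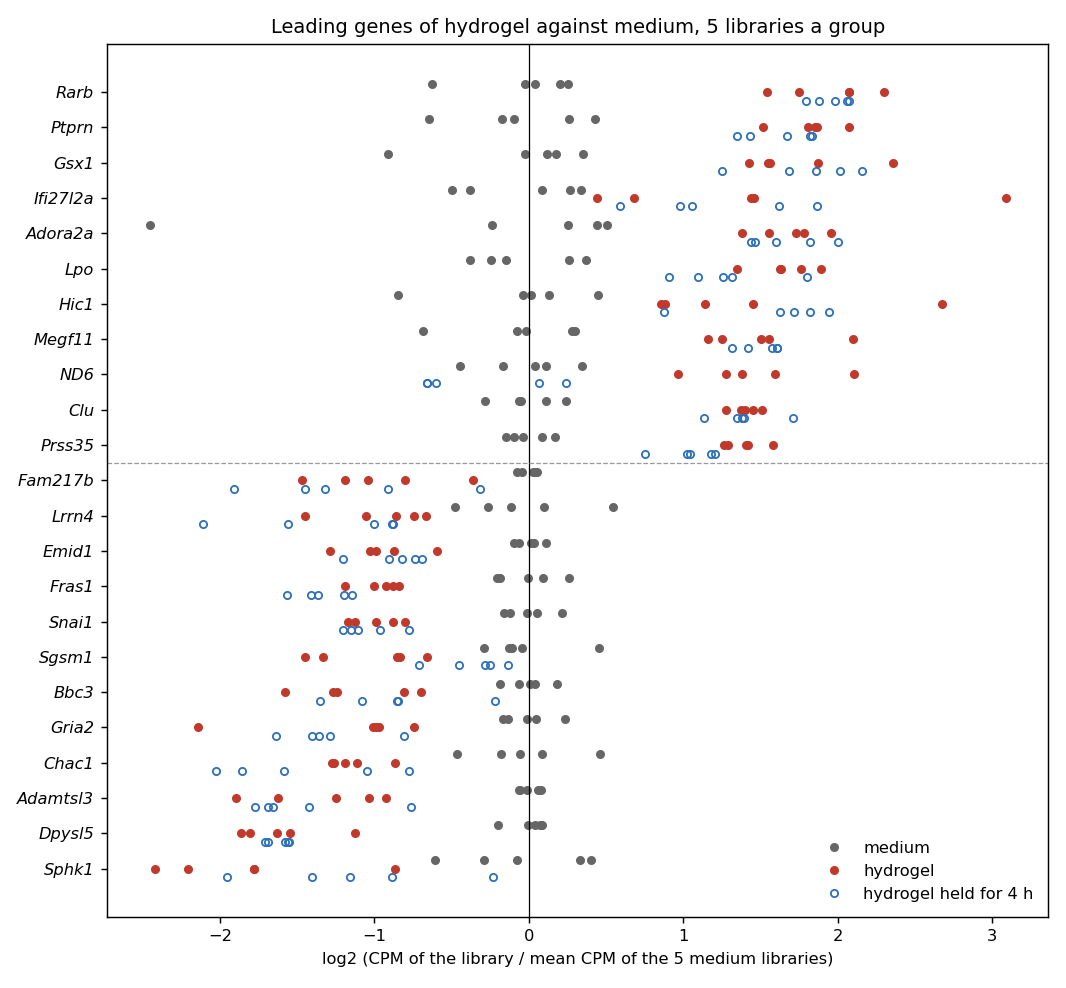
Levels of the 11 named genes with large rises and the 12 with the largest falls in hydrogel, as log2 of each library's CPM over the mean of the 5 medium libraries (x axis), with 1 point per library for medium (grey), hydrogel (red) and hydrogel held for 4 h (blue, open). The held libraries lie with the hydrogel libraries for most genes, while for ND6 they lie with the medium libraries.

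Genes of a retinoid list, put together after the values were seen, held several of the largest rises. Retinoic acid, made from vitamin A, enters the nucleus and binds the retinoic acid receptors, which drive neural differentiation and raise a set of target genes that includes their own receptor gene Rarb. Rarb (NCBI gene 218772, chr14:16430839-17082331 on GRCm38.p6), the retinoic acid receptor beta, was at 8.69, 10.1, 9.08, 5.71 and 10.5 CPM in medium and 29.7, 37.2, 37.1, 25.7 and 43.4 CPM in hydrogel. Each hydrogel library held more than 2 times the CPM of any medium library, and the log2FC was 1.98 ± 0.17 (adjusted p = 9.22e-08). The libraries held for 4 h, at 30.6–37.1 CPM, lay within the hydrogel range. In the 5 groups of NPC cultures the group means of Rarb ran from 4.07 to 29.0 CPM, and single culture libraries reached 35.6 CPM. All medium libraries lay inside the range of culture libraries, and 3 of the 5 hydrogel libraries lay above it.

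Rarb is known for a retinoic acid response element just before the start of a shorter transcript, and that stretch is shown for this reason. The letters are from RefSeq on GRCm38.p6, chr14:16575477-16575676 on the minus strand, 5′ to 3′, ending at the base before the start, with the direct repeat of the receptor half-sites, spaced by 5 bases, in capitals.
Rarb promoter: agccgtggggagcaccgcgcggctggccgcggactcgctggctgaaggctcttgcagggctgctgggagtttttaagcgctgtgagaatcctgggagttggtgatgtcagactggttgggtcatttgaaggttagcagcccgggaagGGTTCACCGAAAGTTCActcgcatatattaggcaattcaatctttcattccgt
The repeat lay 53 to 37 bases before the start. It was searched on both strands by its half-site consensus in the 300 bases around each start, and 32 of 32851 windows (0.0974%) held it. Of the 4 tested genes with such a window, Rarb alone was a DEG. A match of letters describes the sequence and was not tested as a binding site.

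Some other genes of the retinoid list moved in the same direction. Crabp1, which binds retinoic acid in the cytoplasm, was at a low level of 4.49, 2.25, 2.62, 1.49 and 1.10 CPM in medium and 9.22, 7.06, 7.27, 12.5 and 8.02 CPM in hydrogel and rose without overlap (log2FC 1.89 ± 0.35, adjusted p = 0.000987). Hic1, a zinc finger repressor of transcription, was at 4.68, 6.54, 2.67, 4.83 and 5.26 CPM in medium and 13.1, 8.65, 8.82, 30.6 and 10.6 CPM in hydrogel. NPC DCH replicate 4 stood far above the other hydrogel libraries, and without it and NPC media replicate 1 the log2FC was 1.09 and the call was lost (adjusted p = 0.0142). Tgm2, the transglutaminase that retinoic acid raises in many cells, was at 7.22–11.3 CPM in medium and 11.9–21.2 CPM in hydrogel (log2FC 0.82 ± 0.19, adjusted p = 0.00664).

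The remaining receptors did not show this. Rara was at 49.6, 53.8, 56.9, 47.9 and 61.8 CPM in medium and 46.3, 48.3, 43.4, 51.9 and 47.8 CPM in hydrogel (log2FC -0.18 ± 0.10, adjusted p = 0.312), and these ranges overlapped. Rarg (log2FC -0.16 ± 0.15, adjusted p = 0.616) and Rxra (log2FC -0.05 ± 0.10, adjusted p = 0.838) also missed the threshold, as did Dhrs3, a retinal reductase near the floor in medium (log2FC 2.52 ± 0.99, adjusted p = 0.126). Of 26 retinoid binding, metabolism and signalling genes, a list put together after the values were seen, 20 were tested, 5 (25.0%, against 1.91% of all genes) were higher, among them Rarb, Crabp1, Hic1 and Tgm2, and none lower, with a median log2FC of 0.03. The 5 thus include a repressor of transcription, Hic1, and a transglutaminase, Tgm2, which neither bind nor make retinoids. Thus the rise was held by 5 members and did not extend to the list's median. The enzymes that break down retinoic acid, Cyp26a1, Cyp26b1 and Cyp26c1, were too low to be tested.

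More genes of astrocytes rose than fell. Astrocytes differ from NPC by their transporters, metallothioneins and secreted proteins, and 38 such markers were tested. Among them 11 (28.9%) were higher, against 1.91% of all genes, and 1 (2.63%, against 2.41%) was lower, with a median log2FC of 0.34 and 30 of 38 above 0. The other 26 did not pass. The number called higher was 7 with the replicate block or without NPC DCH replicate 1 or 2, and 6 without NPC media replicate 4. For an RNA pool of many cells, more cells of a type and more RNA per cell cannot be told apart.

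Clu, the secreted chaperone clusterin, was the most clearly raised. It was at 54.3, 49.8, 44.4, 44.1 and 37.8 CPM in medium and 131, 121, 112, 126 and 119 CPM in hydrogel. The lowest hydrogel library held over 2 times the level of the highest medium library (log2FC 1.41 ± 0.09, adjusted p = 1.41e-09). Mt3, a metallothionein of brain, was at 45.0, 36.7, 43.6, 30.5 and 36.8 CPM in medium and 64.2, 79.7, 65.0, 89.0 and 83.4 CPM in hydrogel (log2FC 0.99 ± 0.12, adjusted p = 6.28e-06). The libraries of Clu and Mt3 did not overlap between carriers. In the 5 groups of NPC cultures the group means of Clu ran from 15.9 to 117 CPM, and single culture libraries from 13.9 to 130 CPM.

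Transporters and adhesion genes of astrocytes rose too. Slc6a11, a GABA transporter, was at 42.2, 43.0, 45.1, 38.5 and 41.0 CPM in medium and 71.8, 65.7, 62.8, 78.2 and 63.5 CPM in hydrogel (log2FC 0.71 ± 0.09, adjusted p = 2.06e-05). Each hydrogel library was above each medium library. Slc4a4, a bicarbonate transporter, was at 36.0–44.3 CPM in medium and 48.4–61.6 CPM in hydrogel (log2FC 0.43 ± 0.10, adjusted p = 0.00901). Hepacam, a glial adhesion protein, was at 24.7–35.5 CPM in medium and 29.9–51.2 CPM in hydrogel and overlapped by 1 hydrogel library (log2FC 0.60 ± 0.14, adjusted p = 0.0074). Fgfr3, an FGF receptor of astrocytes and their precursors, was at 6.93–8.45 CPM in medium and 8.45–20.6 CPM in hydrogel (log2FC 0.91 ± 0.21, adjusted p = 0.00822), and its ranges met at 8.45 CPM. The calls of Slc4a4, Hepacam and Fgfr3 were lost in 13, 9 and 12 of 20 settings, in each case also with the replicate block, while Slc6a11 was called in all.

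The other astrocyte markers called higher were Pla2g7, Ndrg2, Sparc and Glul. Sparc, a secreted matrix-binding protein, was at 738, 747, 779, 738 and 708 CPM in medium and 955, 1005, 993, 891 and 966 CPM in hydrogel (log2FC 0.38 ± 0.04, adjusted p = 4.39e-07). Glul, the glutamine synthetase that clears glutamate, rose by the smallest step, from 549.7, 581, 591, 596 and 552 CPM in medium to 680.0, 666, 643, 656 and 644 CPM in hydrogel (log2FC 0.20 ± 0.04, adjusted p = 0.00123). Neither gene's libraries overlapped. Ndrg2 (log2FC 0.40 ± 0.08, adjusted p = 0.00362) and Pla2g7 (log2FC 1.44 ± 0.30, adjusted p = 0.00322) likewise rose, the latter from below 4 CPM. Aldoc, the aldolase of astrocytes, was the 1 marker that fell (log2FC -0.15 ± 0.03, adjusted p = 0.00296). The calls of Ndrg2, Pla2g7 and Aldoc were lost in 6, 2 and 3 of 20 settings.

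These levels remained far from those of astrocytes in tissue. The summed level of the 38 markers was 5780–5947 CPM in medium, 6278–6591 CPM in hydrogel and 146897–172183 CPM in astrocytes of the healthy cord. Clu averaged 4242 ± 655 CPM (SD, n = 9) in those astrocytes, and Slc6a11 averaged 3103 ± 465 CPM. Gfap was at 29.8, 16.1, 15.4, 15.5 and 16.4 CPM in medium and 34.6, 25.3, 26.0, 32.1 and 29.6 CPM in hydrogel. Replicate 1 of the medium group lay inside the hydrogel range, and Gfap did not pass the test (log2FC 0.67 ± 0.17, adjusted p = 0.0173). Clu, Mt3 and Hepacam were named by the study on these same samples, and so were Nes, Tnc and Igfbp4 below, so these genes are not independent evidence of their direction. Of the 12 genes the study named, 4 (33.3%, against 1.91% of all genes) were higher, among them Clu, Mt3 and Hepacam, and 3 (25.0%, against 2.41%) lower.

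**Figure D2:**
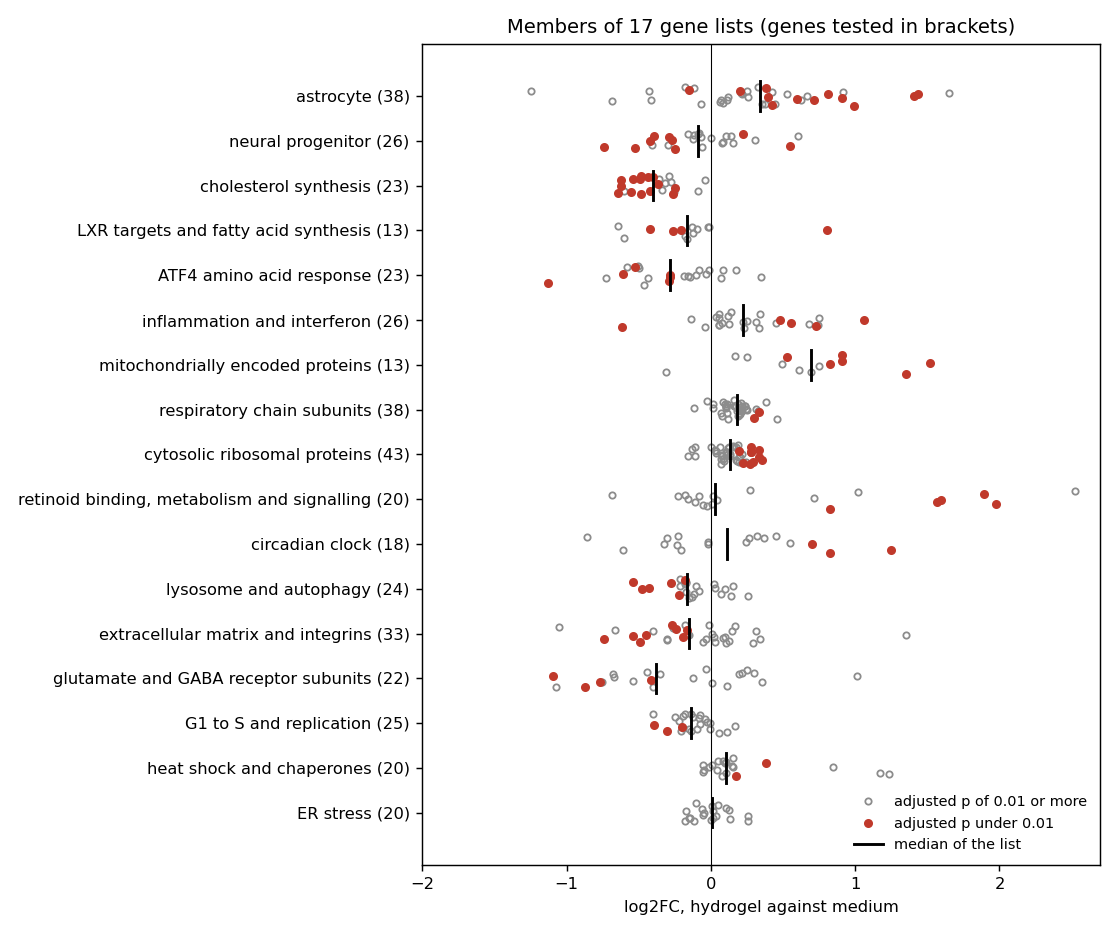
log2FC of hydrogel against medium (x axis) for each tested member of 17 gene lists, with the number tested in brackets, DEGs in red, other genes as open grey circles and the median as a black bar. All 23 cholesterol genes lie below 0, most astrocyte and interferon genes lie above it, and the ER stress genes are centred on it with no DEG.

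Progenitor genes moved in both directions, with falls outnumbering rises. Of 26 neural progenitor markers, 7 (26.9%, against 2.41% of all genes) were lower and 2 (7.69%, against 1.91%) higher, with a median log2FC of -0.09. Their summed level was 19930–20233 CPM in medium and 17807–18839 CPM in hydrogel, and these ranges did not overlap.

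Nptx1, a secreted pentraxin of high level in these cells, was at 2009, 2167, 2072, 2143 and 2139 CPM in medium and 1530.4, 1465, 1478, 1374 and 1431 CPM in hydrogel. Every hydrogel library lay below every medium library (log2FC -0.53 ± 0.03, adjusted p = 5.07e-10). Nes, the intermediate filament nestin of progenitors, was at 1308, 1280.2, 1249, 1276 and 1210.3 CPM in medium and 940.3, 1014, 929.9, 873 and 935 CPM in hydrogel (log2FC -0.42 ± 0.04, adjusted p = 9.22e-08). Tnc, the matrix protein tenascin C, was at 426, 491, 443, 485 and 418 CPM in medium and 281, 288, 295, 228 and 256 CPM in hydrogel (log2FC -0.74 ± 0.06, adjusted p = 5.57e-08). Neither gene's libraries overlapped, and both were lower again in the libraries held for 4 h, at 507–640.4 and 173–220.3 CPM. Igfbp4, Fzd9, Zic1 and Sox2 also fell, with log2FC of -0.25, -0.29, -0.39 and -0.27. The call of Sox2 was lost in 7 of 20 settings, while Igfbp4, Fzd9 and Zic1 were called in all.

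Fabp7 went the other way. This fatty acid-binding protein of radial glia, raised by Notch signalling in the developing brain, was at 848, 821, 759.7, 764 and 814 CPM in medium and 1177, 1151, 1139, 1225 and 1138 CPM in hydrogel. The groups were well apart (log2FC 0.55 ± 0.04, adjusted p = 2.8e-09). Ptprz1, a receptor phosphatase shared by progenitors and astrocytes, rose by less, from 447, 552, 515, 509.5 and 500.2 CPM in medium to 595, 565, 636, 532 and 601 CPM in hydrogel, with overlap of 1 library on each side (log2FC 0.22 ± 0.05, adjusted p = 0.00689). Markers of division differed between the lists of the 2 phases. Of 25 genes of G1 to S and replication, 3 (12.0%, against 2.41% of all genes) fell, Pcna, Cdc45 and Rrm1, and none rose. The median log2FC of the list was -0.14, with 3 above and 22 below 0, and under the other ways of processing 1 to 6 fell. Of 25 genes of G2 to M, Mki67 rose (log2FC 0.78 ± 0.15, adjusted p = 0.00168) and Hmmr fell (log2FC -0.63 ± 0.12, adjusted p = 0.00146). Each was 4% of the list, against 1.91% higher and 2.41% lower among all genes. In the G2 to M list 11 lay above and 14 below 0. Ccnd1, the cyclin of G1, was at 2377–2529 CPM in medium and 2139.6–2345 CPM in hydrogel and did not pass (log2FC -0.09 ± 0.03, adjusted p = 0.0443), though its libraries did not overlap.

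Every tested gene of cholesterol synthesis and uptake had a log2FC below 0. Cells build cholesterol from acetyl-CoA through mevalonate, squalene and lanosterol, and the transcription factor SREBP2 raises the whole pathway when membrane sterol is low. Of 24 members, 23 were tested, 14 were lower (60.9%, against 2.41% of all genes) and none was higher, with a median log2FC of -0.40. Their summed level was 4262–4435 CPM in medium and 3205–3359 CPM in hydrogel, without overlap. Under the other ways of processing tried, 12 to 16 members were lower and 22 or 23 were below 0.

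The falls ran along the pathway. Hmgcs1, the synthase that makes HMG-CoA, was at 499.9, 502, 503, 487 and 506 CPM in medium and 343, 369.6, 379, 314 and 362 CPM in hydrogel (log2FC -0.49 ± 0.05, adjusted p = 2.58e-07). The carriers did not overlap, and the medium libraries were tightly grouped.

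Fdps, which makes farnesyl diphosphate, was at 206, 227, 239, 221 and 229 CPM in medium and 132, 139, 148, 158 and 138 CPM in hydrogel (log2FC -0.64 ± 0.06, adjusted p = 2.13e-07). Cyp51, the lanosterol demethylase, was at 407, 399, 384, 403 and 402 CPM in medium and 299, 307, 290.0, 294 and 277 CPM in hydrogel (log2FC -0.44 ± 0.04, adjusted p = 6.32e-07). Both enzymes were lower in each hydrogel library than in any medium library.

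Further DEGs of the list were Mvd, Fdft1, Sqle, Lss, Msmo1, Nsdhl, Dhcr7 and Srebf2, with log2FC from -0.62 (Nsdhl) to -0.25 (Srebf2). Srebf2, the gene of SREBP2 itself, overlapped by 1 hydrogel library, from 623, 671, 729, 699.9 and 669 CPM in medium to 640.2, 571, 533, 560.2 and 530.1 CPM in hydrogel (log2FC -0.25 ± 0.05, adjusted p = 0.00257). Of 13 nearby lipid genes, 12 lay below 0 and 1 above, with a median log2FC of -0.16. Acly, which makes cytosolic acetyl-CoA, was at 448, 486, 456, 503 and 472 CPM in medium and 355, 337, 343, 373 and 344 CPM in hydrogel (log2FC -0.42 ± 0.05, adjusted p = 1.5e-06). Abca1, the exporter of cholesterol that liver X receptors raise, was at 19.6, 31.3, 32.7, 29.7 and 30.9 CPM in medium and 59.0, 47.9, 52.9, 47.8 and 42.8 CPM in hydrogel and rose without overlap (log2FC 0.80 ± 0.13, adjusted p = 0.000265). Of 13 liver X receptor targets and fatty acid genes, Abca1 was the 1 that rose (7.69%, against 1.91% of all genes). Acly, Elovl6 and Fads1 were the 3 that fell (23.1%, against 2.41%), while DESeq2 called 7 lower.

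**Figure D3:**
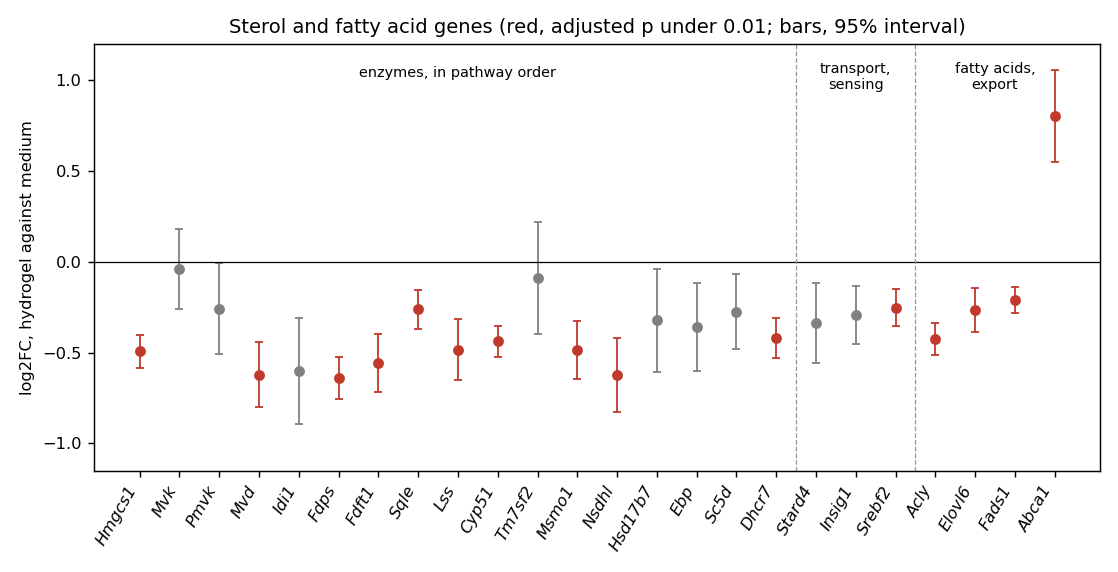
log2FC of hydrogel against medium (y axis) for cholesterol genes in pathway order, for sterol transport and sensing genes, and for fatty acid and export genes, with bars of the 95% interval and DEGs in red. Points lie below 0 along the pathway, and Abca1 lies above it.

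The promoter of Hmgcs1 (NCBI gene 208715, chr13:119690351-119708260) is shown because its sterol regulatory element is a textbook site for SREBP2. The letters are from RefSeq on GRCm38.p6, chr13:119690151-119690350 on the plus strand, with the match to TCACNCCAC in capitals.
Hmgcs1 promoter: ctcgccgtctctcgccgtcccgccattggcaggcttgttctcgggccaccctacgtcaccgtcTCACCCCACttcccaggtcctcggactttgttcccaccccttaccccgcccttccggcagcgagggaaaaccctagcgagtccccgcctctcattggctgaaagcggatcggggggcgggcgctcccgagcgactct
The match lay 137 to 129 bases before the start. Searched on both strands, 408 of 32851 windows of 300 bases (1.24%) held these letters. Among the 16 genes of the cholesterol list with a window, Hmgcs1 was the 1 that did, so this exact spelling was not shared by the members that fell.

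Some targets of ATF4 were lower as well. ATF4 is the transcription factor of the amino acid response, which raises amino acid transporters and synthetases when amino acids run short or protein folding is disturbed. Of 23 tested members, 6 (26.1%, against 2.41%) were lower and none was higher, with a median log2FC of -0.28 and 19 of 23 below 0. None of 20 genes of ER stress, which share an upstream signal with ATF4, was a DEG by edgeR, where 5 had an unadjusted p under 0.05 (DESeq2 called 2 higher), and their median was 0.01.

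Chac1, which degrades glutathione, fell most. It was at 26.9, 18.8, 14.1, 17.2 and 20.8 CPM in medium and 8.56, 10.7, 8.08, 9.04 and 8.17 CPM in hydrogel, with no overlap (log2FC -1.13 ± 0.18, adjusted p = 0.000238). Group means of Chac1 in the NPC cultures ran from 9.05 to 136 CPM. Pck2, the mitochondrial PEP carboxykinase, was at 149.9, 155, 176, 156 and 155 CPM in medium and 116, 114, 99.2, 104 and 81.2 CPM in hydrogel (log2FC -0.61 ± 0.08, adjusted p = 3.14e-05). Asns, the asparagine synthetase, was at 188, 183, 181, 209 and 181 CPM in medium and 167, 140.2, 147, 164 and 152 CPM in hydrogel (log2FC -0.28 ± 0.06, adjusted p = 0.00609). The libraries were apart in all 3 genes, by a small gap in Asns. Ddit4, an inhibitor of mTORC1, and the amino acid transporter Slc7a1 fell with log2FC of -0.52 and -0.28, and Mthfd2, a mitochondrial enzyme of folate metabolism, with -0.29.

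The promoter of Chac1 (NCBI gene 69065, chr2:119351242-119354326), the ATF4 target with the largest fall, is shown for its amino acid response element. The letters are from RefSeq on GRCm38.p6, chr2:119351042-119351241 on the plus strand, and the capitals mark TGATGNAA read on the opposite strand.
Chac1 promoter: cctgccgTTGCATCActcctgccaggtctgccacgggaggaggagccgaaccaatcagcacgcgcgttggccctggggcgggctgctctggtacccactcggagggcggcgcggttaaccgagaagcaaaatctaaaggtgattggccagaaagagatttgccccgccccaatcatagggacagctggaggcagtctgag
The match ended 186 bases before the start. On either strand 1304 of 32851 windows (3.97%) held it. Among 20 ATF4 targets with a window, 7 held it, namely Vldlr, Slc7a11, Asns, Nupr1, Chac1, Pck2 and Trib3, and 3 of these were DEGs.

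Several mitochondrially encoded mRNAs rose in hydrogel. The mitochondrial genome encodes 13 proteins, all subunits of the respiratory chain or ATP synthase, which are made on mitochondrial ribosomes, and these do not contain Rpl22. Of the 13, a list added after the values were seen, 6 (46.2%, against 1.91% of all genes) were higher, none was lower and 7 did not pass, with a median log2FC of 0.69. The share of counts from these genes was 0.143–0.166% in medium, 0.204–0.279% in hydrogel and 0.134–0.163% in the libraries held for 4 h.

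ND6 was at 20.2, 23.8, 16.7, 19.3 and 13.7 CPM in medium and 80.5, 56.5, 48.9, 45.4 and 36.7 CPM in hydrogel (log2FC 1.52 ± 0.18, adjusted p = 4.34e-06). ND5 was at 43.8, 55.5, 46.1, 58.7 and 30.6 CPM in medium and 160.0, 144, 101, 116 and 73.1 CPM in hydrogel (log2FC 1.35 ± 0.17, adjusted p = 1.52e-05). CYTB, of complex III, was at 337, 324, 333, 365 and 363 CPM in medium and 764, 622, 606, 614 and 605 CPM in hydrogel (log2FC 0.91 ± 0.06, adjusted p = 1.41e-09). For all 3 genes every hydrogel library was above every medium library, and NPC DCH replicate 1 was the highest. ND2, ND4 and ND1, which with ND5 and ND6 belong to complex I, rose with log2FC of 0.91, 0.83 and 0.53. COX1, of complex IV, was at 558, 532, 475, 546 and 501 CPM in medium and 647, 589, 587, 565 and 527 CPM in hydrogel and missed the threshold (log2FC 0.17 ± 0.05, adjusted p = 0.0537).

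The libraries held in hydrogel for 4 h were lower in these genes. ND6 was at 19.6, 22.1, 11.9, 12.3 and 11.9 CPM in the held libraries (log2FC -1.77 ± 0.20, adjusted p = 6.49e-06, held against not held). ND5 (log2FC -1.66 ± 0.17, adjusted p = 1.5e-06), ND1 (log2FC -1.24 ± 0.09, adjusted p = 6.21e-09), ND2 (log2FC -0.72 ± 0.08, adjusted p = 3.13e-06) and ND4 (log2FC -0.52 ± 0.07, adjusted p = 6.39e-05) also fell, while CYTB did not pass (log2FC -0.14 ± 0.07, adjusted p = 0.558). COX1 fell to 276, 306, 291, 306 and 262 CPM (log2FC -1.01 ± 0.06, adjusted p = 3.56e-11), below all medium libraries. Reads of these genes and of their copies in the nuclear genome cannot be separated in the counts.

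**Figure D4:**
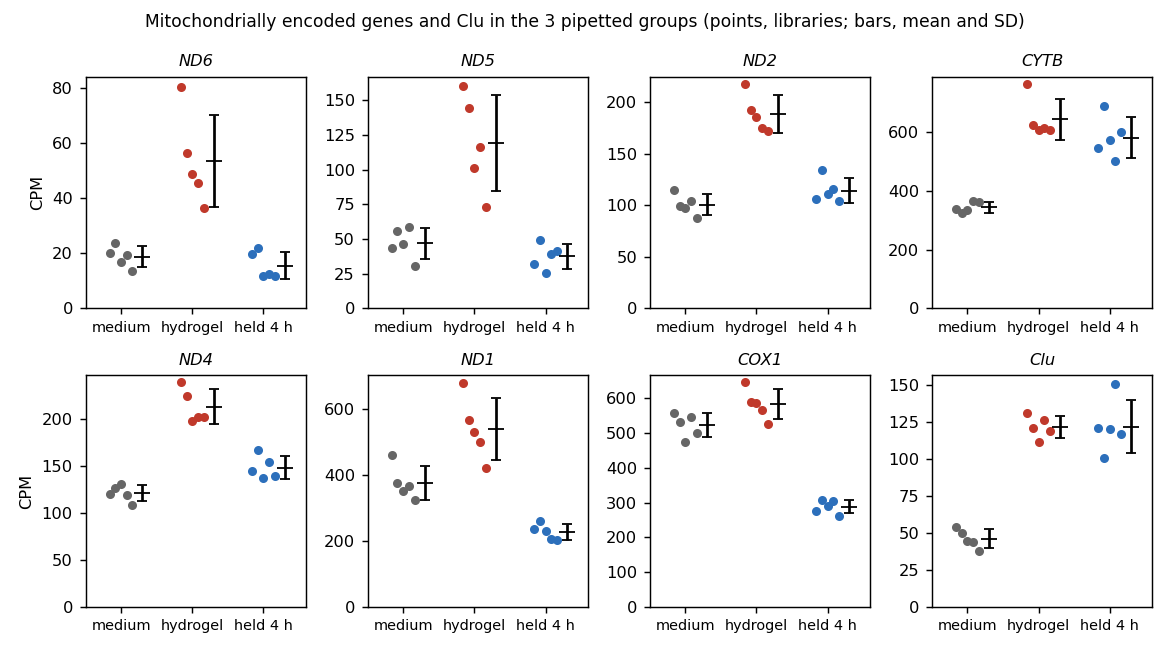
CPM (y axis, from 0) of 7 mitochondrially encoded genes and of Clu in the medium, hydrogel and held hydrogel groups, with a point per library and a bar for the mean and SD (n = 5). Every hydrogel library is above every medium library except in ND1 and COX1, where they overlap, and the held libraries return to the medium range or below it in ND6, ND5, ND1 and COX1, while Clu stays high in the held group.

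For nuclear genes of the same complexes the number called depended on the processing. Of 38 nuclear-encoded respiratory chain subunits, Uqcrq and Cox5b (5.26%, against 1.91%) were higher and none lower, with a median log2FC of 0.18 and 36 above 0. DESeq2 called 11 higher, as did edgeR without NPC media replicate 1, and 0 were called with the replicate block. Of 43 cytosolic ribosomal protein genes, 10 (23.3%) were higher and none lower, with a median of 0.13, and 6 were higher with the block or without NPC DCH replicate 2 or NPC media replicate 3 or 4. Both kinds of gene are short, and length moved with the contrast. Over 9418 genes with at least 10 CPM, the log2FC had a Spearman correlation of -0.25 with exon length, given as a description, since genes of a library share its depth and composition. Length was also correlated, per library, with log2 CPM less the gene's mean over the 3 pipetted groups. This gave 0.23 to 0.38 in NPC media replicates 2 to 5 and -0.17 to 0.04 in NPC DCH. NPC media replicate 1, at -0.01, lay inside the hydrogel range. In 10 bins of length the median log2FC went from 0.11 in the shortest bin, with a median exon length of 1475.5 bases, to -0.07 in the longest, with 12982 bases.

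DEGs differed accordingly. The median exon length was 3339 bases among the higher DEGs, 5799.5 among the lower ones and 4485 among all genes tested. When each library's length trend was removed, an alternative chosen after seeing the data, 212 of the 265 higher and 263 of the 334 lower DEGs kept their call. No respiratory subunit was then a DEG, and 6 ribosomal protein genes were higher and 2 lower. The astrocyte list then held 12 higher and 2 lower genes, the cholesterol list 14 lower and the ATF4 list 7 lower ones, and the 6 mitochondrially encoded genes stayed called. The matrix and integrin list described below went from 8 lower and 0 higher to 7 and 1, with 16 members above and 17 below 0 and a median of -0.06 in place of -0.15.

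**Figure D5:**
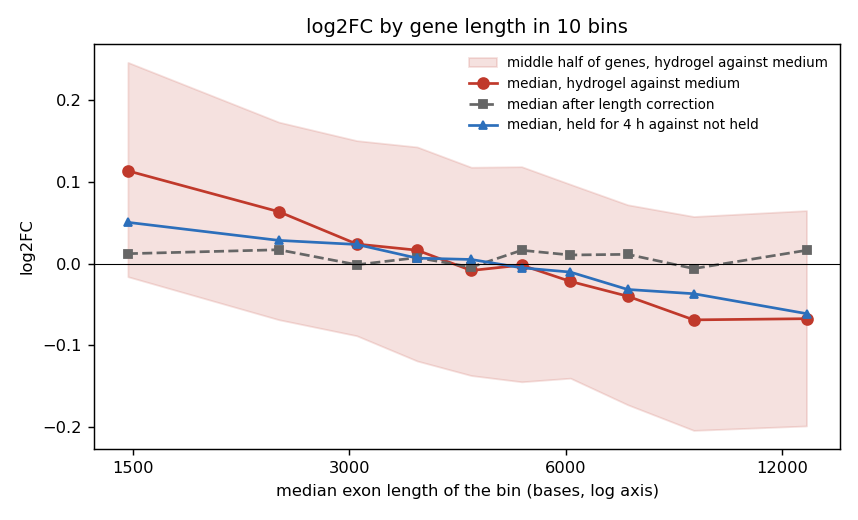
Median log2FC (y axis) in 10 bins of genes by exon length (x axis, log scale, bases) for hydrogel against medium (red, with the middle 50% of genes shaded), for the same after length correction (grey) and for hydrogel held for 4 h against not held (blue). The red line falls from 0.11 to -0.07, and the corrected line stays near 0.

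Some interferon-stimulated genes were higher. These genes are raised by interferons and encode antiviral and antigen presentation proteins. Of 30 tested, in a list put together after the values were seen, 9 were higher (30.0%, against 1.91%) and none lower, with a median log2FC of 0.32.

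Oasl2, a relative of the antiviral oligoadenylate synthetases, was at 165, 167, 165, 161 and 181 CPM in medium and 215, 220.1, 221, 223 and 219 CPM in hydrogel (log2FC 0.40 ± 0.05, adjusted p = 1.6e-05). Ifitm3, a membrane protein that blocks viral entry, was at 275, 261, 261, 259 and 249 CPM in medium and 352, 369, 365, 394 and 344 CPM in hydrogel (log2FC 0.49 ± 0.05, adjusted p = 6.45e-07). B2m, the light chain of MHC class I, was at 545, 477, 498, 470.0 and 497 CPM in medium and 648, 623, 635, 602 and 634 CPM in hydrogel (log2FC 0.34 ± 0.04, adjusted p = 1.14e-05). None of these overlapped between carriers. H2-D1, Isg15, Oasl1, Trim25 and Cxcl10 rose with log2FC of 0.43, 0.55, 0.59, 0.61 and 0.48.

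Ifi27l2a showed the largest interferon-related change and the least even one. It was at 2.53, 4.29, 4.49, 3.78 and 2.73 CPM in medium and 5.72, 9.64, 9.78, 4.83 and 30.3 CPM in hydrogel (log2FC 1.76 ± 0.39, adjusted p = 0.00514). NPC DCH replicate 5 stood far above the other hydrogel libraries, and without it the log2FC was 1.08 and the call was lost (edgeR adjusted p = 0.0406). The call was also lost with the replicate block (0.0255), with length correction (adjusted p = 0.0148) and without NPC DCH replicate 2 or any 1 of the medium libraries, in 9 of 20 settings in all. The levels of interferon genes varied widely between NPC cultures, from 0.99–389 CPM in the 5 group means of Oasl2, a wider span than that between the carriers. Among 26 inflammation and interferon genes of a wider list, Serpina3n and Vcam1 rose beside Isg15 and Cxcl10 (15.4%, against 1.91% of all genes). The chemokine Cxcl12 fell (log2FC -0.61 ± 0.14, adjusted p = 0.00647), 3.85% of the list against 2.41% of all genes. These 4 rises became 1 with the block or without NPC media replicate 4, 0 without NPC media replicate 3, and 2 without NPC DCH replicate 2, 3 or 5 or NPC media replicate 5.

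Neuronal genes moved in both directions. Of 15 tested neuron markers, 2 were higher (13.3%, against 1.91%), Gap43, a growth cone protein (log2FC 0.79 ± 0.16, adjusted p = 0.00227), and Tubb3, the neuronal tubulin (log2FC 0.53 ± 0.10, adjusted p = 0.00127). Syn1, a synaptic vesicle protein, was the 1 that was lower (log2FC -0.58 ± 0.13, adjusted p = 0.00682), 6.67% of the list against 2.41% of all genes. The median was -0.16, with 5 above and 10 below 0, and 1 was higher without the 2 libraries that stood apart.

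Dpysl5, a collapsin response mediator that shapes axons and dendrites, was at 73.5, 88.8, 84.1, 89.8 and 86.9 CPM in medium and 29.0, 23.3, 24.3, 38.7 and 27.3 CPM in hydrogel. The highest hydrogel library lay far below the lowest medium library (log2FC -1.56 ± 0.12, adjusted p = 2e-08). Group means of Dpysl5 in the NPC cultures ran from 21.6 to 101 CPM. Dpysl3 was at 64.1–86.1 CPM in medium and 45.3–54.0 CPM in hydrogel (log2FC -0.61 ± 0.09, adjusted p = 0.000129). Dpysl2 (log2FC -0.31 ± 0.07, adjusted p = 0.00385) and the stathmin Stmn3 (log2FC -0.83 ± 0.16, adjusted p = 0.00123) also fell, so that 4 of 7 tested collapsin response mediators and stathmins (57.1%, against 2.41%) were lower and none higher, in a list put together after the values were seen.

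Some receptor subunits were lower too. Gria2, an AMPA receptor subunit, was at 19.8, 21.6, 19.3, 22.5 and 25.5 CPM in medium and 13.0, 10.8, 10.9, 4.93 and 11.1 CPM in hydrogel (log2FC -1.09 ± 0.20, adjusted p = 0.000951). Gria3 was at 249–266 CPM in medium and 176–209 CPM in hydrogel (log2FC -0.41 ± 0.05, adjusted p = 1.98e-05). Grin3a, an NMDA receptor subunit, was at 36.6, 29.2, 29.2, 29.5 and 29.8 CPM in medium and 14.7, 16.7, 19.5, 16.2 and 16.9 CPM in hydrogel (log2FC -0.87 ± 0.13, adjusted p = 8.83e-05). The carriers did not overlap in any of these. With these, 4 of 22 tested glutamate and GABA receptor subunits (18.2%, against 2.41%) were lower and none was higher, again in a list made after the values were seen. The other 18 did not pass, and 8 of the 22 lay above 0.

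A few growth factor genes moved, in both directions. Etv5, a transcription factor raised by FGF signalling, was at 1377, 1473, 1457, 1466 and 1459.9 CPM in medium and 1150.4, 1074, 1061, 1115 and 1072 CPM in hydrogel. All 5 hydrogel libraries were below the lowest medium library, replicate 1 (log2FC -0.39 ± 0.03, adjusted p = 4.6e-08). Dusp6 and Spry4, which feed back on the MAPK pathway, had log2FC of -0.26 and -0.26. Of 21 genes of growth factor and MAPK feedback, these 3 (14.3%, against 2.41%) fell, Fgfr3 and Lrig1 (9.52%, against 1.91%) rose, the other 16 did not pass, and the median was -0.10. Egr1, an immediate early gene, was higher at 61.4, 63.9, 62.7, 59.0 and 75.8 CPM in medium and 105, 102, 108, 110.0 and 93.9 CPM in hydrogel (log2FC 0.70 ± 0.08, adjusted p = 4.38e-06), and Klf6 was lower (log2FC -0.39 ± 0.08, adjusted p = 0.00164), the other 22 tested immediate early genes not passing. Egr1 and Klf6 were each 4.17% of that list, against 1.91% higher and 2.41% lower among all genes.

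Of 33 matrix and integrin genes, 8 (24.2%, against 2.41%) were lower and none was higher, with a median log2FC of -0.15 and 13 above 0. With the block, or without NPC DCH replicate 5 or NPC media replicate 3, 5 were lower. Besides Tnc these were the proteoglycans Vcan, Ncan and Bcan, the integrins Itga5 and Itgb1, and Col4a2 and Lamc1 of basement membranes. Vcan was at 405, 464, 435, 470.1 and 439.6 CPM in medium and 329, 319, 334, 282 and 349 CPM in hydrogel, without overlap (log2FC -0.45 ± 0.05, adjusted p = 6.19e-06). Snai1, a repressor of epithelial genes and a target of growth factor signalling, was at 60.4, 56.0, 63.0, 70.5 and 54.5 CPM in medium and 33.1, 30.7, 27.9, 34.8 and 27.0 CPM in hydrogel. The carriers were well apart (log2FC -0.98 ± 0.11, adjusted p = 2.07e-06). Group means of Snai1 in the NPC cultures ran from 25.0 to 57.7 CPM. Id1, a target of BMP signalling, fell (log2FC -0.73 ± 0.10, adjusted p = 3.14e-05), the 1 DEG among 19 BMP and TGF-beta genes (5.26%, against 2.41%).

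Of 24 lysosome and autophagy genes, 6 (25.0%, against 2.41%) were lower, none was higher and 18 did not pass, with a median log2FC of -0.16 and 7 above 0. Psap, the precursor of the saposins, was at 1573, 1642, 1569, 1604 and 1564 CPM in medium and 1346, 1331, 1284, 1309 and 1274 CPM in hydrogel (log2FC -0.27 ± 0.03, adjusted p = 1.47e-06). Hexa, a hexosaminidase, was at 115, 101, 102, 99.7 and 98.0 CPM in medium and 67.7, 69.3, 75.8, 67.7 and 73.0 CPM in hydrogel (log2FC -0.54 ± 0.07, adjusted p = 3.53e-05). Neither overlapped between carriers. Grn, Ctsl, Npc2 and Ctsd fell with log2FC of -0.48, -0.43, -0.22 and -0.18.

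A few clock genes rose. Nr1d1, the repressor REV-ERB alpha, was at 43.7, 45.4, 44.5, 42.4 and 40.0 CPM in medium and 74.6, 74.0, 67.5, 65.7 and 68.2 CPM in hydrogel (log2FC 0.70 ± 0.09, adjusted p = 8.55e-06). Nr1d2, REV-ERB beta, was at 22.7, 25.8, 22.5, 26.3 and 27.7 CPM in medium and 41.7, 50.5, 43.6, 40.4 and 44.1 CPM in hydrogel (log2FC 0.82 ± 0.11, adjusted p = 2.69e-05). Dbp, an output transcription factor of the clock, was at 4.48, 2.56, 6.32, 4.34 and 7.10 CPM in medium and 14.6, 11.1, 9.94, 8.42 and 14.5 CPM in hydrogel (log2FC 1.25 ± 0.27, adjusted p = 0.00405). All 3 were without overlap. They were the DEGs among 18 tested clock genes (16.7%, against 1.91%), a list made after the values were seen, in which 9 lay above and 9 below 0 and the core genes Clock, Arntl, Per1, Per2, Cry1 and Cry2 did not pass. The time of day at which the libraries were made is not given in the sources used here.

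Stress lists differed in their counts. Of 20 heat shock genes and chaperones, Hspe1 (log2FC 0.38 ± 0.07, adjusted p = 0.00123) and Hsp90aa1 (log2FC 0.17 ± 0.03, adjusted p = 0.00142) rose (10.0%, against 1.91%), and DESeq2 called 6 higher. Of 23 tested NRF2 targets, which answer oxidative stress, 0 were DEGs by edgeR or by DESeq2, and 4 had an unadjusted p under 0.05 by edgeR. Of 21 p53 targets, Bbc3, which encodes the pro-apoptotic PUMA, was at 16.6, 21.4, 18.0, 19.0 and 19.3 CPM in medium and 7.82, 10.8, 11.6, 6.32 and 7.96 CPM in hydrogel and fell without overlap (log2FC -1.08 ± 0.18, adjusted p = 0.000376), as did Cdkn1a (log2FC -0.33 ± 0.06, adjusted p = 0.000649) and Plk2 (log2FC -0.30 ± 0.05, adjusted p = 0.000149), 14.3% of the list against 2.41% of all genes. Of 31 genes of hypoxia and glycolysis, 5 (16.1%, against 2.41%) fell, including the lactate exporter Slc16a3 (log2FC -0.69 ± 0.12, adjusted p = 0.00071) and the hexokinase Hk2 (log2FC -0.49 ± 0.08, adjusted p = 0.000559). Pfkfb3 (log2FC 0.67 ± 0.10, adjusted p = 0.000144) and Gpi1 (log2FC 0.22 ± 0.04, adjusted p = 0.000441) rose (6.45%, against 1.91%). Without NPC DCH replicate 3, NPC media replicate 2 or NPC media replicate 3, 3 of this list were lower.

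Signalling and chromatin lists held few DEGs. Of 21 tested YAP and SRF targets, 2 (9.52%, against 2.41% of all genes) fell, Vcl and Myh9. These encode a focal adhesion protein and a non-muscle myosin heavy chain. Myh9 was not called with the length correction. Of 16 tested Notch genes, the ligand gene Dll1 rose (6.25%, against 1.91%) and the ligand gene Jag1 fell (6.25%, against 2.41%). Of 17 tested hedgehog and Wnt targets, 1 (5.88%, against 2.41%) fell, Lef1. Of 30 chromatin and transcription regulators, 3 (10.0%, against 2.41%) fell, Smarca2, Med12 and Arid2. With the length correction, 0 hedgehog and Wnt targets and 0 chromatin and transcription regulators were lower, and the same held with the replicate block. The length correction also left 1 chromatin and transcription regulator higher. With it, 2 YAP and SRF targets were lower and 1 higher, and 3 Notch genes were lower and 1 higher. Of 7 tested nuclear noncoding RNAs, 0 were DEGs by edgeR or by DESeq2, and 2 had an unadjusted p under 0.05 by edgeR.

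Other leading genes have separate roles. Ptprn, a protein of dense-core vesicles, was at 4.87, 3.52, 7.39, 6.58 and 5.16 CPM in medium and 20.0, 19.2, 23.2, 19.9 and 15.7 CPM in hydrogel (log2FC 1.84 ± 0.20, adjusted p = 2.07e-06). Gsx1, a homeobox factor of progenitors, was at 2.14, 3.95, 4.37, 4.55 and 5.13 CPM in medium and 10.8, 14.7, 20.6, 11.8 and 11.9 CPM in hydrogel (log2FC 1.80 ± 0.25, adjusted p = 5.11e-05). Adora2a, a receptor for adenosine, was at 7.66, 4.78, 8.00, 6.73 and 1.03 CPM in medium and 21.8, 16.6, 18.6, 14.7 and 19.4 CPM in hydrogel (log2FC 1.70 ± 0.33, adjusted p = 0.00183). The carriers were apart in each, by the widest gap in Ptprn. Group means in the NPC cultures ran from 1.54 to 38.8 CPM for Ptprn, 2.39 to 14.8 for Gsx1 and 4.37 to 22.4 for Adora2a. Lpo, lactoperoxidase (log2FC 1.67 ± 0.17, adjusted p = 7.57e-07), Prss35, of the serine protease family (log2FC 1.40 ± 0.15, adjusted p = 1.47e-06), and Megf11, a cell surface protein with EGF-like repeats (log2FC 1.56 ± 0.21, adjusted p = 3.01e-05), rose without overlap. Their culture group means ran from 1.69 to 21.6, 1.47 to 76.1 and 4.64 to 22.3 CPM, in that order.

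Sphk1, the kinase that makes sphingosine 1-phosphate, fell most. It was at 17.1, 10.6, 12.3, 16.3 and 8.51 CPM in medium and 2.81, 7.09, 3.77, 2.42 and 3.78 CPM in hydrogel (log2FC -1.70 ± 0.29, adjusted p = 0.000432). Adamtsl3, a secreted matrix protein, was at 34.6, 31.5, 31.5, 34.1 and 32.5 CPM in medium and 13.8, 16.0, 8.83, 17.3 and 10.7 CPM in hydrogel (log2FC -1.29 ± 0.16, adjusted p = 1.52e-05). Fras1, a protein of basement membranes, was at 75.0, 86.1, 75.8, 91.9 and 103 CPM in medium and 43.1, 48.3, 37.9, 45.6 and 47.0 CPM in hydrogel (log2FC -0.95 ± 0.10, adjusted p = 1.2e-06). All 3 were lower in each hydrogel library than in any medium library. Group means in the NPC cultures ran from 3.90 to 7.42 CPM for Sphk1, 16.6 to 106 for Adamtsl3 and 15.2 to 75.4 for Fras1. Emid1, Lrrn4, Fam217b and Sgsm1 completed the 12, with log2FC of -0.93, -0.92, -0.92 and -0.99.

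Few genes differed between hydrogel held for 4 h and not held. Against the hydrogel libraries not held, which this contrast shares with the one above, 6 (0.0436%) of 13768 genes were higher and 38 (0.276%) lower. Of the 23 leading genes named above, ND6 alone was a DEG there. Metrn, a secreted factor that promotes glial differentiation and neurite growth, was at 206, 214, 246, 234 and 217 CPM in medium and 328, 342, 362, 374 and 390.1 CPM in hydrogel (log2FC 0.69 ± 0.06, adjusted p = 5.57e-08) and at 447–536 CPM after 4 h (log2FC 0.45 ± 0.06, adjusted p = 3.45e-05). Its libraries did not overlap between any of the 3 groups. Nes fell further (log2FC -0.73 ± 0.05, adjusted p = 6.21e-09), as did Tnc (log2FC -0.45 ± 0.07, adjusted p = 0.000643). Length moved with this contrast too (Spearman correlation of log2FC with exon length -0.23), and no length-corrected fit was made for it. Exon lengths were 6416 bases for Nes and 7772 for Tnc, against the median of 4485 given above. Rarb (log2FC -0.00 ± 0.14, adjusted p = 1) and Clu (log2FC 0.01 ± 0.08, adjusted p = 0.997) did not pass in that contrast, which does not show that they were equal.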

How the data were processed

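RNA was pulled down with HA-tagged ribosomes from pipetted NPC and sequenced. The deposited files hold whole, unscaled counts for each gene. In Galaxy the authors made them by trimming with Trimmomatic, aligning to mm10 with HISAT2 and counting with featureCounts, as named in the submitters' processing notes. Versions are left out. Even numbers made up 66.1–70.4% of low counts in hydrogel libraries, as when both mates of a pair are counted, so Poisson precision is overstated, and counts were halved in an alternative. All tables hold 27179 genes under NCBI identifiers. Symbols for 25275 of them and promoter sequences came from RefSeq on GRCm38.p6, exon lengths from GENCODE M21. Groups followed the sample titles.

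The 5 NPC DCH and 5 NPC media libraries entered edgeR 4.0.16 (R 4.3.3, TMM, filterByExpr, glmQLFit and glmQLFTest), with Benjamini-Hochberg adjustment and a threshold of 0.01. SEs are the size of the log2FC over the square root of F. The script was tested on simulated data. It called 43 of 100 genes changed by a log2FC of 0.5 and 70 of 100 changed by 1, with 5 false calls. A gene that did not pass may therefore still differ. Single values per library were compared by exact permutation tests with scipy 1.17.1. Genes are named as the 12 largest changes in each direction at 10 CPM or more in a group and no overlap, up to 4 members per list with the smallest adjusted p, genes the study named, and identity checks, and all other named genes were chosen after their values were seen. Some genes that these rules take are not reported here, though list counts include them. The members, 32 of the lists and the tests were chosen with earlier results of these data known, and 6 more lists were added after values were seen. The counts cannot tell apart reads of near-identical, overlapping or antisense genes. Alternatives were DESeq2 1.42.0, its size factors or library totals in place of TMM, no filter or 1 CPM in 5 libraries, all 3 pipetted groups in 1 fit, a replicate block, halved counts, a threshold of 0.05 and each library left out. Others, without both libraries that stand apart and with offsets that remove each library's length trend (loess span 0.5), were chosen after seeing the data.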

Additional observations from a re-analysis of the deposited data

Results flagged for a closer look

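In 16 of 294 sets of 5 libraries examined (the named genes, by group), 1 library lay far from the other 4 by Dixon's criterion, where chance gives about 1 in 20. NPC media replicate 1 gave 6 of them, with 29.8 CPM of Gfap, 19.6 of Abca1, 125 of Ddit4, 36.6 of Grin3a, 1377 of Etv5 and 115 of Hexa. Other medium libraries gave 14.8 CPM of Sgsm1 (replicate 2), 176 of Pck2 and 1014 of Itgb1 (replicate 3), and 209 of Asns (replicate 4). In hydrogel the values were 764 CPM of CYTB and 274 of Sox2 (replicate 1), 30.6 of Hic1, 4.93 of Gria2 and 80.5 of Arid2 (replicate 4), and 30.3 of Ifi27l2a (replicate 5).

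The libraries held in hydrogel for 4 h differed from those not held, by edgeR's quasi-likelihood test, in 9 named genes. The log2FC of held against not held was -1.77 for ND6, -1.66 for ND5, -1.24 for ND1, -0.72 for ND2, -0.52 for ND4, -1.01 for COX1, -0.73 for Nes, -0.45 for Tnc and 0.45 for Metrn. This contrast and that of hydrogel with medium share the hydrogel libraries not held. Its log2FC also fell with exon length, as given above.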

How the results depend on the processing

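The 265 higher and 334 lower DEGs became 467 and 554 with DESeq2 and 575 and 653 at a threshold of 0.05. With each library left out they ranged from 162 to 314 and from 223 to 342, and the higher count fell by over 1.5 times without NPC DCH replicate 2 (173) or NPC media replicate 2 (168), 3 (166) or 4 (162). The fall in samples lowers power by construction. Replicate numbers did not pair the samples: correlations of same-numbered deviations were -0.04 to 0.02, and 2 of 10 samples correlated best with their own number. With the replicate block 164 genes were higher and 229 lower. In the contrast of held with not held hydrogel, the block turned the sign of values near 0, to 0.0156 for Rarb, -0.00261 for Clu and -0.00419 for Slc6a11, and DESeq2 that of Myh9, to 0.00106. The other settings kept both counts within 1.5 times. Of 135 named DEGs, 90 were called under every setting and none changed sign. Calls lost were 34 with the block, 14 to 33 with a library left out, 20 without the 2 libraries that stand apart, 16 with length correction (Ifi27l2a, Isg15, Sgsm1, Slc7a1, Npc2, Lamc1, Cxcl12, Rrm1, Uqcrq, Cox5b, Elovl6, Myh9, Lef1, Smarca2, Med12 and Arid2), 14 with 3 groups in 1 fit, 7 without a filter and 2 with library totals. Depth limits genes of a few CPM, such as Crabp1, whose spread is wide.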
